A study of Mus musculus with 9 samples.

Results

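The 10 genes described here build and load MHC class I, the complex with which nearly every nucleated cell shows peptides from its own interior to CD8 T cells. They are the heavy chain genes H2-K1, H2-D1, H2-Q4, H2-Q6, H2-Q7 and H2-T23, the light chain gene B2m, the peptide transporter genes Tap1 and Tap2, and Nlrc5, which encodes a transactivator of class I promoters. They were taken by symbol from the 22054 genes of the deposited table, and every member was found and passed the filter on low counts. The list was chosen from measured values: H2-Q6, H2-Q7, H2-Q4 and H2-K1 had already been seen to be higher in SR-717 than in H-151 libraries. Values from that contrast are therefore a description here and carry no test.

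RNA came from the callus of fractured femurs of male C57BL/6J mice aged 7 weeks, collected on day 7 after surgery, with 3 libraries in each of 3 groups. All mice had the fracture and were injected into the peritoneum every day for a week, with a volume of 200 μl. The H-151 group received 750 nmol of H-151, a covalent inhibitor of STING. The SR-717 group received 30 mg/kg of SR-717, an agonist of STING, and the PBS group received the buffer alone. STING is the adaptor that answers cyclic GMP-AMP made by cGAS when DNA lies in the cytosol, and it leads to type I interferon and NF-κB signaling. The drugs reached the whole animal and were not directed to one cell type, and no group without a fracture was analysed here. The labels name the tissue as bone, although their extraction text speaks of cell lines. Markers of osteoblasts, osteoclasts and cartilage were present in every library.

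As background, a class I heavy chain is folded in the endoplasmic reticulum, joins β2-microglobulin, and is held by tapasin and its partners next to the TAP transporter. TAP brings in peptides cut by the proteasome, and only a loaded complex is stable at the cell surface. H2-K1 and H2-D1 encode the classical heavy chains of this mouse strain. H2-Q4, H2-Q6, H2-Q7 and H2-T23 encode non-classical heavy chains, of which the H2-T23 product, Qa-1, is a ligand of the NK cell receptor CD94/NKG2A. Interferon-γ and NF-κB raise transcription of these genes, and blood-forming and immune cells carry more class I than most other cells do.

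The promoters of the 6 heavy chain genes show how alike the members are before any expression value is considered. Of the 10 genes, 8 matched an entry in the RefSeq promoter table (GRCm38.p6), which holds the 250 bases before and the 50 bases after a transcription start. The 6 sequences below are the coding strand from 5′ to 3′, with letters that match a searched motif in capitals. They lie at chr17:34000284-34000583 on the minus strand for H2-K1, chr17:35262844-35263143 on the plus strand for H2-D1, chr17:35424600-35424899 (plus) for H2-Q6, chr17:35438905-35439204 (plus) for H2-Q7, chr17:35379367-35379666 (plus) for H2-Q4 and chr17:36032652-36032951 (minus) for H2-T23. H2-K1 has a further entry whose start is slightly shifted and which is not printed.
H2-K1: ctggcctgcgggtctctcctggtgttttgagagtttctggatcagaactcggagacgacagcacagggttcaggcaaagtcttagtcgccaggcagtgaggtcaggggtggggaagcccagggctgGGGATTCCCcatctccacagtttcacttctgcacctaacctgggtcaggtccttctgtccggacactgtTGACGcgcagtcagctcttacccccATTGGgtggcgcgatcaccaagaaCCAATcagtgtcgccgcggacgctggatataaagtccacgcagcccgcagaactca
H2-D1: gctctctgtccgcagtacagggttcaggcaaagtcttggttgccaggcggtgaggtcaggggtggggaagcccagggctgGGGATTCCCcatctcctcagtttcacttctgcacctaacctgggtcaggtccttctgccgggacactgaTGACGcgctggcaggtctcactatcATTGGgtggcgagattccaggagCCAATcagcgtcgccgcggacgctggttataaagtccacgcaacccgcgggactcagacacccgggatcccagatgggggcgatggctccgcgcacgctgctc
H2-Q6: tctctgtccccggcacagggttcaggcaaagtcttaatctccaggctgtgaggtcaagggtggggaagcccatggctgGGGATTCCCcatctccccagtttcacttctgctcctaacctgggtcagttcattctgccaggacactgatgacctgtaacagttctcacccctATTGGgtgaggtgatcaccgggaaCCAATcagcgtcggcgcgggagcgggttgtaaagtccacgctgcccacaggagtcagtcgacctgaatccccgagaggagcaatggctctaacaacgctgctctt
H2-Q7: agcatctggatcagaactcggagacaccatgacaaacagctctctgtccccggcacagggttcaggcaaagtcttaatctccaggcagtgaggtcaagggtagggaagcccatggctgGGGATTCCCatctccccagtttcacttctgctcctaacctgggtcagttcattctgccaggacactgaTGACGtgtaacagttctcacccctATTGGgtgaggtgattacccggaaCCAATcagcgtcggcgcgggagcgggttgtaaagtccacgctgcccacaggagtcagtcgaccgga
H2-Q4: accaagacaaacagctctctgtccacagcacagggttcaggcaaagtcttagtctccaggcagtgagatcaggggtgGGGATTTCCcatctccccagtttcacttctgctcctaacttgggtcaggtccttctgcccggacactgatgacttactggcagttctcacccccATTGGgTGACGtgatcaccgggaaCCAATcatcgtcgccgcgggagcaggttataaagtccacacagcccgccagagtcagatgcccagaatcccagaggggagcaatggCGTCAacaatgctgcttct
H2-T23: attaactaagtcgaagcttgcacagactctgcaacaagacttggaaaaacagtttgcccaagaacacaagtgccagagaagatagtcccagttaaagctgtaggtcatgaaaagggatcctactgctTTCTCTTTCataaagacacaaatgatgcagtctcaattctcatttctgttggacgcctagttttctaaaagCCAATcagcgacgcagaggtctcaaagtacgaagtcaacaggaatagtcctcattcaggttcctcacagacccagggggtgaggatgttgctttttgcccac

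The letters GGGATTCCC, a form of the NF-κB site known from class I promoters, were present in H2-K1, H2-D1, H2-Q6 and H2-Q7. The same letters on either strand were found in 116 of 32851 promoters in the table, or 0.353%. They began 124 bases before the start in H2-K1, 170 in H2-D1, 172 in H2-Q6 and 132 in H2-Q7. H2-Q4 held the related letters GGGANTTCC, found in 1.68% of promoters, 173 bases before its start. In these 5 genes the distance from the κB letters to the letters CCAAT on the coding strand was 116 to 118 bases. Each of the 5 also held CCAAT on the opposite strand, printed as ATTGG, between those places. H2-T23 held neither κB form but held the interferon response element letters GAAANNGAA, on the opposite strand. Only these letters were searched for that element, so other forms of it in the 5 promoters with κB letters are not covered. B2m carried GAAANNGAA as well, and 8.56% of all promoters did. CCAAT was found in 8 of the 8 member genes with an entry, against 37.4% of all promoters, and TGACG, the core of the X2 box, in 6 of the 8 against 20.8%. The interferon-γ activated site TTCNNNGAA was found in none of the 8 and in 8.3% of all promoters. The motifs were searched on both strands and no κB form overlaps the other in these windows. The longest run of identical letters shared by 2 promoters was 67 bases between H2-Q6 and H2-Q7 and 47 bases between H2-K1 and H2-D1, whereas H2-T23 shared no more than 12 with any of the other 5. A match of letters is a description and does not show that a factor was bound.

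The genes are neighbours on the chromosome as well. In the GENCODE annotation of GRCm38, 8 of the 10 lie on chromosome 17 within the major histocompatibility complex. H2-K1 (ENSMUSG00000061232) spans 33996017 to 34000347 on the minus strand, at one end of this stretch. Tap1 (ENSMUSG00000037321) spans 34187553 to 34197225, where its first bases overlap Psmb9 on the opposite strand. Tap2 (ENSMUSG00000024339) spans 34203527 to 34216321. H2-D1 (ENSMUSG00000073411) spans 35262730 to 35267499 and H2-Q4 (ENSMUSG00000035929) 35379617 to 35385290. H2-Q6 (ENSMUSG00000073409) spans 35424850 to 35430055 and H2-Q7 (ENSMUSG00000060550) 35439155 to 35443773. H2-T23 (ENSMUSG00000067212) spans 36029773 to 36032855 on the minus strand, at the other end. B2m (ENSMUSG00000060802) lies at 122147686 to 122153083 on chromosome 2 and Nlrc5 (ENSMUSG00000074151) at 94434356 to 94527272 on chromosome 8. H2-Q4, H2-T23, Tap1, Tap2, B2m and Nlrc5 overlap a gene annotated on the opposite strand, so without knowing how strand was used in counting, their counts are less certain.

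A library held between 16987398 and 23272480 expected counts, which are estimates that divide reads shared by similar genes and so need not be whole. SR-717 1, the first replicate of the SR-717 group, stood apart from the other 8 libraries. On the first principal component, which held 46.5% of the variance of log2 CPM (counts scaled to a common library total), it lay at 100.6, with PBS 1 at 39.0 and the rest between -28.7 and -3.89. Its summed TPM (a level corrected for gene length and scaled to a common library total) of 4 markers of all leukocytes, Ptprc, Cd53, Laptm5 and Coro1a, was 2086, against 389 to 671 in the other 8. Its 4 neutrophil markers summed to 29782, against 1204 to 9783, and its 4 cartilage markers to 55.8, against 554 to 6382. In bulk tissue, more cells that express a gene and more RNA of it per cell cannot be told apart. The log2 fold changes of the members against PBS are therefore given with and without SR-717 1.

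H2-K1 and H2-D1 were the dominant heavy chain genes and made up 86.9% to 90.9% of the heavy chain counts of a library. The level of H2-K1 was 614, 387 and 323 TPM in the H-151 libraries, 714, 629 and 330 TPM in the PBS libraries, and 1629, 693 and 576 TPM in the SR-717 libraries, in the order of replicates 1 to 3. The level of H2-D1 was 869, 595 and 527 TPM with H-151, 1004, 869 and 503 TPM with PBS, and 1973, 871 and 808 TPM with SR-717. SR-717 1 was the highest library for both genes, and the other SR-717 libraries lay inside the range of the PBS libraries. H2-D1 was above H2-K1 in every library, with a ratio of H2-K1 to H2-D1 between 0.612 and 0.825 in TPM. That ratio was 0.778 ± 0.059 (SD, n = 3) with SR-717 and 0.697 ± 0.036 with PBS, which overlapped.

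Levels of the non-classical heavy chains were below that of H2-K1 in every library. H2-T23 stood at 107, 73.2 and 58.0 TPM with H-151, 117, 105 and 53.9 TPM with PBS, and 195, 77.7 and 77.7 TPM with SR-717. H2-Q4 stood at 51.4, 27.2 and 26.4 TPM with H-151, 64.1, 53.4 and 26.4 TPM with PBS, and 163, 56.5 and 43.4 TPM with SR-717. In both genes SR-717 2 and 3 were not above the highest PBS library.

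H2-Q6 and H2-Q7, which encode Qa-2 molecules, differed most from PBS among the members with SR-717, by the ratio of mean TPM, but not with H-151. H2-Q7 was measured at 35.8, 17.1 and 13.8 TPM with H-151, 41.4, 33.5 and 13.1 TPM with PBS, and 167, 50.4 and 31.7 TPM with SR-717. H2-Q6 was measured at 17.5, 8.19 and 7.20 TPM with H-151, 19.1, 18.6 and 6.45 TPM with PBS, and 98.2, 35.3 and 19.3 TPM with SR-717. All 3 SR-717 libraries were above all 6 others for H2-Q6, although SR-717 3 exceeded PBS 1 by little. For H2-Q7, SR-717 1 and 2 were above all others and SR-717 3 was below PBS 1, PBS 2 and H-151 1. The expected counts of H2-Q6 and H2-Q7 were not whole in any of the 9 libraries, as for H2-D1 and H2-Q4, so reads were divided among similar copies and the split between such genes is uncertain. Those of B2m, Tap2 and Nlrc5 were whole in every library.

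B2m, the light chain shared by all class I molecules, was the most abundant member in each of the 9 libraries when compared per length. Its level was 1445, 1021 and 916 TPM with H-151, 1984, 905 and 1127 TPM with PBS, and 3563, 1700 and 1338 TPM with SR-717. PBS 2 was the lowest of all libraries, and PBS 1 was higher than SR-717 2 and 3. The ratio of B2m to the summed heavy chains was 0.530 in PBS 2 and 1.21 in PBS 3, while the other 7 libraries lay between 0.843 and 1.01.

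The transporter genes stood below H2-K1, H2-D1 and B2m in every library. Tap1 was at 38.7, 24.04 and 19.4 TPM with H-151, 40.0, 33.2 and 19.8 TPM with PBS, and 120, 32.8 and 29.5 TPM with SR-717. Tap2 was at 23.6, 16.7 and 16.9 TPM with H-151, 27.7, 26.7 and 13.4 TPM with PBS, and 48.4, 19.5 and 22.3 TPM with SR-717. TAP is a dimer of both products, and the ratio of Tap1 to Tap2 was 2.49 in SR-717 1 and between 1.14 and 1.68 in the others. Nlrc5 was the lowest member, at 5.44, 2.36 and 2.51 TPM with H-151, 7.83, 4.58 and 4.70 TPM with PBS, and 22.4, 4.02 and 3.37 TPM with SR-717. SR-717 2 and 3 were below every PBS library for Nlrc5 in TPM, whereas in CPM SR-717 2 was above PBS 3. By the median over the 9 libraries, the order of levels was B2m, H2-D1, H2-K1, H2-T23, H2-Q4, H2-Q7, Tap1, Tap2, H2-Q6 and Nlrc5, and the ranges of H2-Q4, H2-Q7, Tap1, Tap2 and H2-Q6 overlapped.

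**Figure D1:**
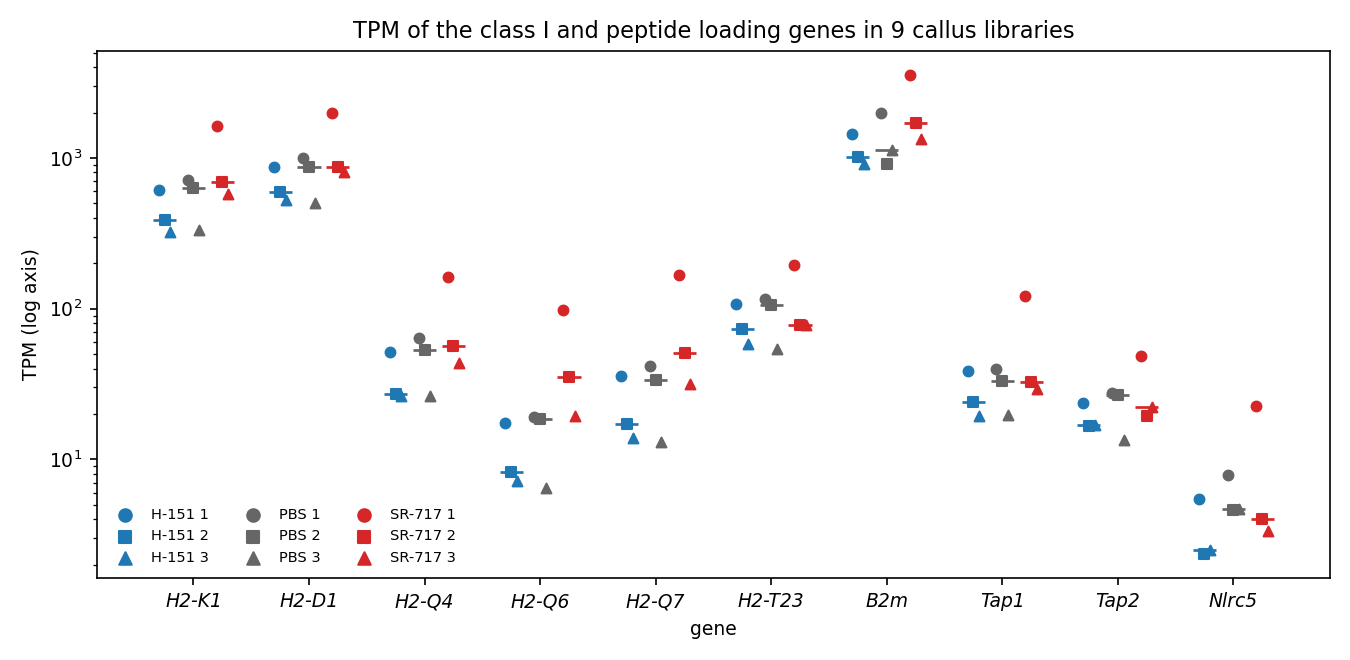
TPM on a log axis of the 10 genes in each of the 9 libraries, with colours for the groups, symbols for the replicate number and a short line at the median of each group. SR-717 1 is the highest library for every gene, and H2-Q6 is the gene whose 3 SR-717 libraries all lie above the other 6.

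Against PBS, the question was whether activation or inhibition of STING moved class I expression away from the vehicle. With SR-717 all 10 members were higher than with PBS, with a median log2 fold change of 0.98, where 52.2% of all 14070 genes tested were higher and their median was 0.01. Without SR-717 1 the median of the members was 0.15 and 7 of the 10 were higher, beside a median of -0.02 for all genes. By edgeR's quasi-likelihood test, 0 members and 0% of all genes stayed under an adjusted p of 0.05, the smallest being 0.9999. Unadjusted p-values under 0.05 were found for 97 genes, and DESeq2 also called 0 genes after adjustment and 178 before it. At an unadjusted p under 0.05 with a 1.5-fold change, 1 of the 10 members was called, H2-Q6, against 0.519% of all genes. H2-Q6 was also the single member whose SR-717 libraries did not overlap the PBS libraries, on the high side, where 1.36% of all genes were found, and 0 members were found on the low side, where 2.62% were. This comparison shares its 3 SR-717 libraries with the contrast that served to choose members.

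Among the heavy chains, H2-Q6 had a log2 fold change of 1.96 (SE 0.71, unadjusted p = 0.0313 and adjusted p = 0.9999 in edgeR) and 0.99 (SE 0.50) without SR-717 1. H2-Q7 had a log2 fold change of 1.69 (SE 0.75), which was 0.56 without that library. H2-Q4 stood at 1.02 (SE 0.60), H2-K1 at 0.94 (SE 0.50), H2-D1 at 0.76 (SE 0.46) and H2-T23 at 0.49 (SE 0.48). Without SR-717 1 these 4 were at 0.14, 0.27, 0.16 and -0.17, so that H2-T23 turned to the other side of PBS. B2m had a log2 fold change of 0.84 (SE 0.50) and 0.24 without SR-717 1, and Tap1 1.14 (SE 0.62) and 0.11. Tap2 moved from 0.59 (SE 0.45) to -0.01 and Nlrc5 from 1.10 (SE 0.77) to -0.35 when SR-717 1 was left out. Leukocyte markers stood highest in the same library, and their part in these values was not tested.

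Because reads are shared between similar copies, the counts of the 6 heavy chain genes were also added up within each library before the fit. The summed TPM was 1695, 1107 and 955 with H-151, 1959, 1709 and 932 with PBS, and 4225, 1784 and 1556 with SR-717. The summed gene had a log2 fold change of 0.85 against PBS (SE 0.49, adjusted p = 0.9997 in edgeR's quasi-likelihood test), and of 0.20 without SR-717 1. Thus the 2 remaining SR-717 libraries lay between the PBS libraries for the sum.

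What a replicate number stands for is not stated. SR-717 and PBS libraries of equal number deviated together across genes (r = 0.65, 0.34 and 0.14), so the fit was repeated with the number as a block. Libraries of unequal number were not compared, so these r values do not show that the numbers mark pairs. The block was also chosen from the same values that it was then fitted to. With the replicate block, 6 of the 10 members had an unadjusted p under 0.05 and a 1.5-fold change, where 3.15% of all genes did. They were H2-Q6, with a log2 fold change of 1.72 (SE 0.33), H2-Q7 with 1.38 (SE 0.33), H2-K1 with 0.81 (SE 0.26), H2-Q4 with 0.81 (SE 0.28), B2m with 0.77 (SE 0.25) and H2-D1 with 0.66 (SE 0.25). Of these, H2-Q6, H2-Q7, H2-Q4 and H2-K1 had first been seen to be higher in the same SR-717 libraries, and similar copies share reads. The 6 are therefore not separate findings, and their count beside 3.15% is a description and not a test. The summed heavy chains had 0.73 (SE 0.27) in this fit, with an unadjusted p under 0.05. H2-T23, Tap1, Tap2 and Nlrc5 did not reach that threshold, with values of 0.38, 0.83, 0.49 and 0.54. After adjustment over all genes no member was called with the block either (adjusted p = 0.9991 in edgeR for each of the 6). Leaving out SR-717 1 also left PBS 1 without a partner in its block, so the difference then came from replicates 2 and 3. PBS 1 was the highest PBS library for every member. This fit had 1 residual degree of freedom and left 2 of the 10 members under both thresholds, where 0.972% of all genes were. They were H2-Q6, with a log2 fold change of 1.32 (SE 0.26), and H2-Q7, with 0.97 (SE 0.25), and 0 genes stayed under an adjusted p of 0.05 in edgeR. Both belong to the genes first seen to be higher with SR-717, so this count is a description as well. H2-K1, H2-D1, H2-Q4 and B2m stood at 0.54, 0.42, 0.47 and 0.65 in that fit.

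With H-151 the members lay slightly below PBS. All 10 had a negative log2 fold change, with a median of -0.29, where 44.2% of the 14085 genes tested were higher and their median was -0.02. The values ran from -0.44 for H2-Q4 (SE 0.34) to -0.15 for Tap1 (SE 0.28), with -0.33 for H2-K1, -0.24 for H2-D1, -0.42 for H2-Q6, -0.41 for H2-Q7, -0.20 for H2-T23, -0.25 for B2m, -0.23 for Tap2 and -0.37 for Nlrc5. None exceeded its error enough for an unadjusted p under 0.05, and the lowest was 0.236 for H2-Q4 in edgeR's quasi-likelihood test. The H-151 and PBS libraries overlapped for every member, where 1.6% of all genes did not overlap with H-151 higher and 2.15% with H-151 lower. Of all genes, 0 (0%) had an adjusted p under 0.05 by edgeR and 0 by DESeq2, 91 and 125 had an unadjusted p under 0.05, and 0.426% passed p and 1.5-fold together. With the replicate block 1.86% passed, and again 0 of the 10 members. The summed heavy chains stood at -0.28 (SE 0.29, adjusted p = 0.9999 in edgeR). Without PBS 1, the PBS library with the highest leukocyte markers, H2-T23, B2m and Tap1 turned to 0.02, 0.15 and 0.06. A small decrease can therefore not be separated from the spread between PBS libraries.

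**Figure D2:**
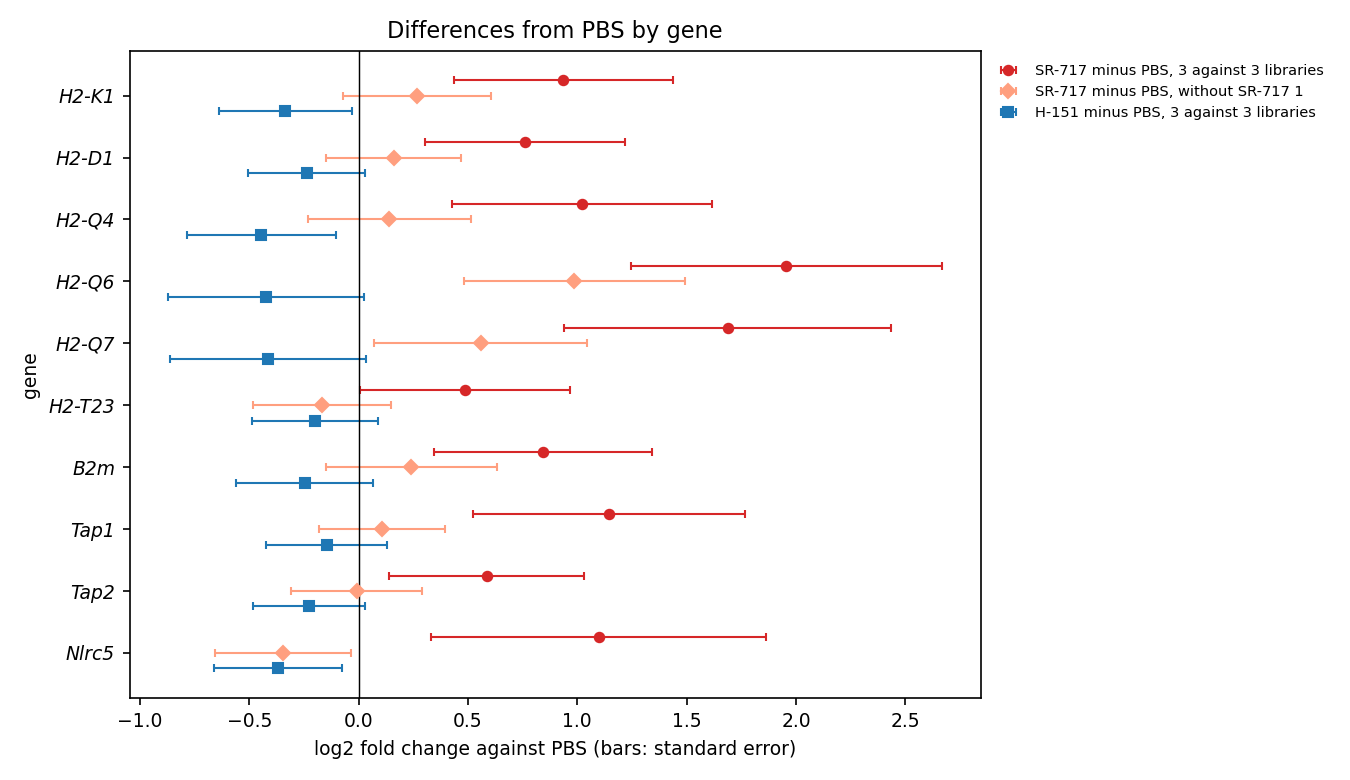
Log2 fold change against PBS of each gene with its standard error, for SR-717, for SR-717 without its first replicate and for H-151. All SR-717 values are positive and shrink when SR-717 1 is left out, H2-Q6 and H2-Q7 keep the highest values, and all H-151 values are negative.

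Between the drugs, the values that served to choose members can only be described. SR-717 was above H-151 for all 10, with log2 differences of 2.37 for H2-Q6, 2.09 for H2-Q7, 1.46 for H2-Q4 and Nlrc5, 1.28 for Tap1, 1.26 for H2-K1, 1.08 for B2m, 0.99 for H2-D1, 0.80 for Tap2 and 0.68 for H2-T23. The median was 1.27, and 0.44 without SR-717 1. In CPM, the SR-717 libraries of H2-K1, H2-D1, H2-Q6 and B2m were all above all H-151 libraries, which in TPM was so for H2-Q6 alone. In CPM this position was held by 2.23% of all genes, with 2.82% in the reverse position. For 2 of the members the groups barely separated: SR-717 3 and H-151 1 were at 882 and 880 CPM for H2-D1, and at 611 and 609 CPM for B2m. Over the 14151 genes tested in this contrast, 0% were called at an adjusted p of 0.05 by edgeR (1 gene by DESeq2), 146 had an unadjusted p under 0.05 by edgeR and 281 by DESeq2, and 0.756% passed p and 1.5-fold together.

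In all, 15 totals and ratios of class I, transporter and proteasome genes were compared with PBS. The ratios among class I genes compare genes within a library, and they can still vary with how much class I RNA it held. H2-Q6 plus H2-Q7 made up 6.33%, 4.74% and 3.06% of the counts of H2-K1 plus H2-D1 in the SR-717 libraries, 2.86%, 2.91% and 1.94% with PBS, and 2.93%, 2.09% and 2.02% with H-151. All 3 SR-717 libraries were above the other 6, with a mean of 4.71% ± 1.64 (SD, n = 3), against 2.57% ± 0.55 with PBS and 2.35% ± 0.51 with H-151. The mean difference from PBS was 2.14 percentage points, and 1.33 without SR-717 1. In TPM, the same ratio was 5.51% ± 1.84 with SR-717 and 3.12% ± 0.67 with PBS. Among the PBS and H-151 libraries, the share of counts was 2.86% to 2.93% where the summed heavy chains were at 1695 to 1959 TPM. It was 1.94% to 2.09% where they were at 932 to 1107 TPM, so it went along with the amount of class I RNA. SR-717 2 and 3, at 1784 and 1556 TPM, stood above these shares, at 4.74% and 3.06%.

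H2-T23 went the other way relative to the classical genes. Its counts were 4.31%, 3.94% and 4.44% of those of H2-K1 plus H2-D1 with SR-717, 5.36%, 5.57% and 5.08% with PBS, and 5.70%, 5.86% and 5.36% with H-151. Every SR-717 library was below every other library, SR-717 2 most of all, so that the difference was as large without SR-717 1. The expected counts of H2-T23 were not whole in 8 of the 9 libraries. The mean difference from PBS was -1.11 percentage points, and it was between -1.24 and -0.96 with any library left out. H2-Q6 made up 48.6%, 53.5% and 51.1% of the counts of H2-Q6 plus H2-Q7 with SR-717 and 43.3% to 48.0% in the other 6 libraries, and how far the division of reads between these copies touches this share was not tested. H2-Q4 against the classical genes gave 3.63% ± 0.69 with SR-717 and 3.35% ± 0.29 with PBS, which overlapped.

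For each of these 3 separated ratios, the two-sided exact permutation test against PBS gave p = 0.1, the smallest that 3 libraries against 3 allow, and 0.75 after Benjamini-Hochberg adjustment over 30 tests. The same ratios gave exact p-values of 1.0, 0.3 and 1.0 for H-151 against PBS. The ratios were picked with values of these libraries known, and H2-Q6, H2-Q7 and H2-K1 belong to the genes first seen to be higher with SR-717.

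**Figure D3:**
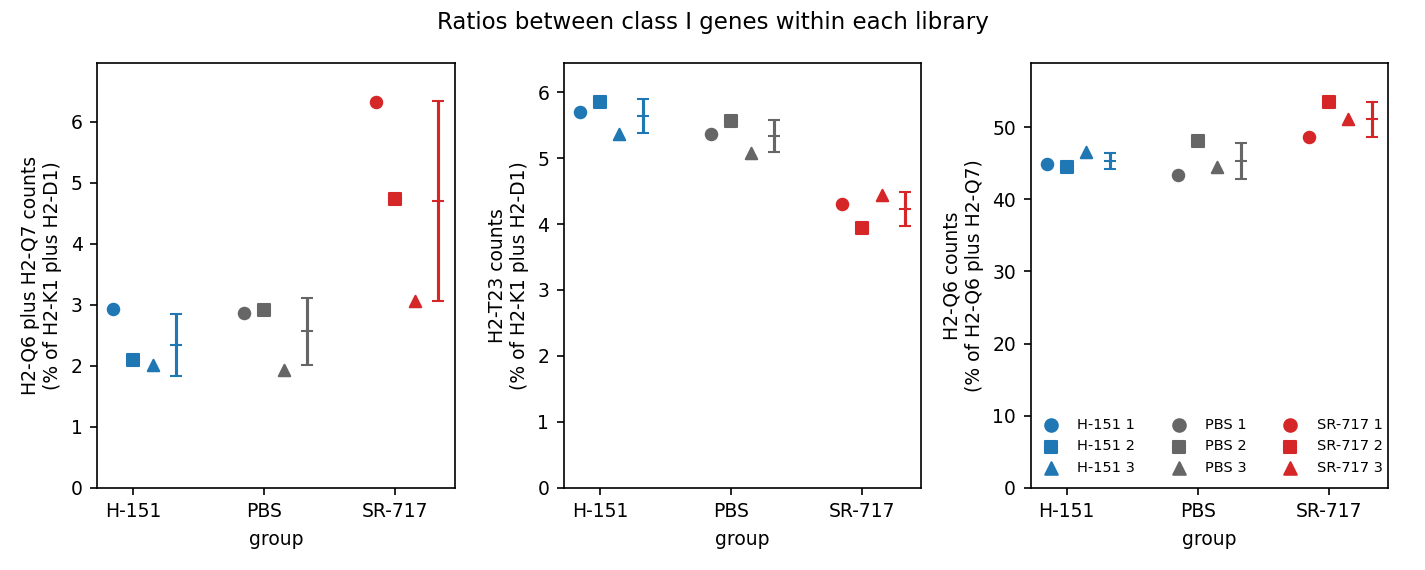
Counts of H2-Q6 plus H2-Q7 and of H2-T23 as a percent of H2-K1 plus H2-D1, and counts of H2-Q6 as a percent of H2-Q6 plus H2-Q7, in each of the 9 libraries, with mean and SD beside them. The 3 SR-717 libraries lie above the other 6 in the left and right panels and below them in the middle panel.

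The 10 members varied together from library to library. Over the 45 pairs of members, Pearson's r of log2 CPM across the 9 libraries was between 0.80 and 1.00 with a median of 0.95, and without SR-717 1 between 0.35 and 0.99 with a median of 0.86. The libraries share their depth and their mix of cells across all genes, and this is a description. Outside the members, the 10 genes closest to the summed heavy chains among 14310 were H2-M3 (r = 0.99), Laptm5, Irf5, Nckap1l, Psmb8, Gbp8, Gramd1b, H2-T22, C1qc and Psmb9 (r = 0.97). H2-M3, Laptm5 and Irf5 were also the closest 3 without SR-717 1, with r of 0.96, 0.96 and 0.95. H2-M3 and H2-T22 are class I genes themselves, Psmb8 and Psmb9 encode immunoproteasome subunits, and Laptm5 and C1qc are expressed by leukocytes and macrophages. For Nlrc5 the closest genes included Ifi47, H2-Eb1, H2-Aa and Psd4, with r of 0.99 each, of which H2-Eb1 and H2-Aa are class II genes. None of these 4 was among the closest 5 without SR-717 1.

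Other steps of antigen presentation were read from lists written with earlier results known. In the immunoproteasome and its PA28 activator, 5 of 5 genes were higher with SR-717 than with PBS, with a median log2 fold change of 0.45, and 3 of 5 with a median of 0.07 without SR-717 1. Psmb8 stood at 0.87 (SE 0.51), Psmb9 at 1.04 (SE 0.58) and Psmb10 at 0.45 (SE 0.33), and none had an unadjusted p under 0.05. Psmb8 TPM was 235 in SR-717 1 and between 54.4 and 102 in the other 8 libraries. The 3 constitutive subunits that these replace, Psmb5, Psmb6 and Psmb7, had a median of 0.01. In the H-151 comparison the immunoproteasome list had a median of -0.08.

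In the peptide loading and trimming list 5 of 6 genes were higher with SR-717 than with PBS, with a median of 0.22, and 2 of 6 without SR-717 1. Tapbp, which encodes tapasin, stood at 0.46 (SE 0.42) and at -0.09 without SR-717 1. Of the 14 other class I and class I-like genes in the table, 8 could be tested, and 5 of these were higher with SR-717, with a median of 0.17, which was 0.01 without SR-717 1. The class II list had 6 of 6 higher with a median of 0.59, and 1 of 6 higher with a median of -0.18 without SR-717 1. In a list of class I receptors and related receptors 5 genes could be tested, and all 5 were higher, with a median of 0.93. Without SR-717 1 it was 3 of 5 with a median of 0.49. They were Cd8a, a coreceptor of T cells, at 1.45, Klrd1 and Klrk1 of NK cells at 0.88 and 1.06, and Pirb and Lilrb4a, which are found mainly on myeloid and B cells, at 0.93 and 0.54. Without SR-717 1 these stood at 0.65, 0.56, 0.49, -0.40 and -2.33 in the same order. Cd8a, Klrd1 and Klrk1 had few counts, and the SE of their values with all libraries were 0.73, 0.80 and 0.49. Cd8a had 10, 10 and 12 expected counts with PBS and 55, 29 and 6 with SR-717, and Klrd1 35, 15 and 4 and 47, 42 and 14. No gene of these lists had an unadjusted p under 0.05 against PBS with either drug.

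Factors that bind class I promoters showed no common direction. Of 13 genes, 8 were higher with SR-717 than with PBS, with a median of 0.07, and 4 without SR-717 1. Irf1, an interferon-induced activator of class I, stood at 0.96 (SE 0.64) and at -0.17 without SR-717 1. Irf1 TPM was 175 in SR-717 1 and 33.6 to 63.2 in the others. Of the listed genes outside the members, only Creb1, whose product binds the X2 box, had an unadjusted p under 0.05 against PBS. Creb1 stood at -0.85 with H-151 (SE 0.34, adjusted p = 0.9999 in edgeR), where 91 of 14085 genes had an unadjusted p under 0.05. Its level was 7.36, 5.37 and 5.76 TPM with H-151 and 11.4, 7.79 and 14.1 TPM with PBS. Of 8 tested genes of the interferon list, 5 were higher with SR-717 than with PBS, and 0 without SR-717 1. With H-151, 8 of 8 were lower than with PBS, with a median of -0.58 and no unadjusted p under 0.05. PBS 1 was the highest PBS library for each of the 8. Ifit1, for example, was at 12.5, 1.91 and 1.39 CPM with PBS and 4.00, 1.34 and 3.22 CPM with H-151. How far the lower values with H-151 rest on PBS 1 was not tested. Ifng had 22 expected counts in SR-717 1, 2 in SR-717 2 and 3 each, 0 with PBS and 0 to 2 with H-151, and was too low to be tested. Ifnb1 was at 0 in all 9 libraries.

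Class I genes and markers of most leukocyte types were highest in the same library. In CPM, all 4 leukocyte, 4 neutrophil, 4 macrophage, 5 T cell and 4 NK cell markers were highest in SR-717 1, as were all 10 members, where 25.9% of 14310 genes were. The B cell and dendritic cell markers stood otherwise, with 0 of 4 and 2 of 4 highest there. Without SR-717 1, r of the summed heavy chains across the 8 libraries was 0.44 with Ptprc, -0.03 with Cd53, 0.67 with Coro1a and 0.96 with Laptm5. The summed macrophage markers were 1013 TPM there and 515 to 833 in the others, and the T cell markers 31.5 and 8.05 to 19.7. NK cell markers summed to 66.7 TPM there and to 10.3 to 34.9 in the others, where SR-717 2 was the highest. B cell markers summed to 3.09 TPM there, inside the range of 2.59 to 35.4 of the others, and dendritic cell markers to 24.05, inside 20.6 to 34.6. The 4 cartilage markers and 4 of 5 osteoblast markers were lowest there, as were the 4 osteoclast markers, which summed to 5128 TPM against 6380 to 10749. Skeletal muscle markers were present in every library, with a sum of 2485 to 15396 TPM. In CPM, SR-717 2 was above all PBS libraries for 3 of the 6 heavy chains, H2-K1, H2-Q6 and H2-Q7, beside 16.1% of all genes, and SR-717 3 for H2-Q6, beside 15.7%. In TPM, H2-K1 of SR-717 2 lay inside the PBS range. In SR-717 2 and 3 the leukocyte markers summed to 552 and 455 TPM, inside the PBS range of 389 to 671. The part of the cell mix in the class I values was not tested.

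**Figure D4:**
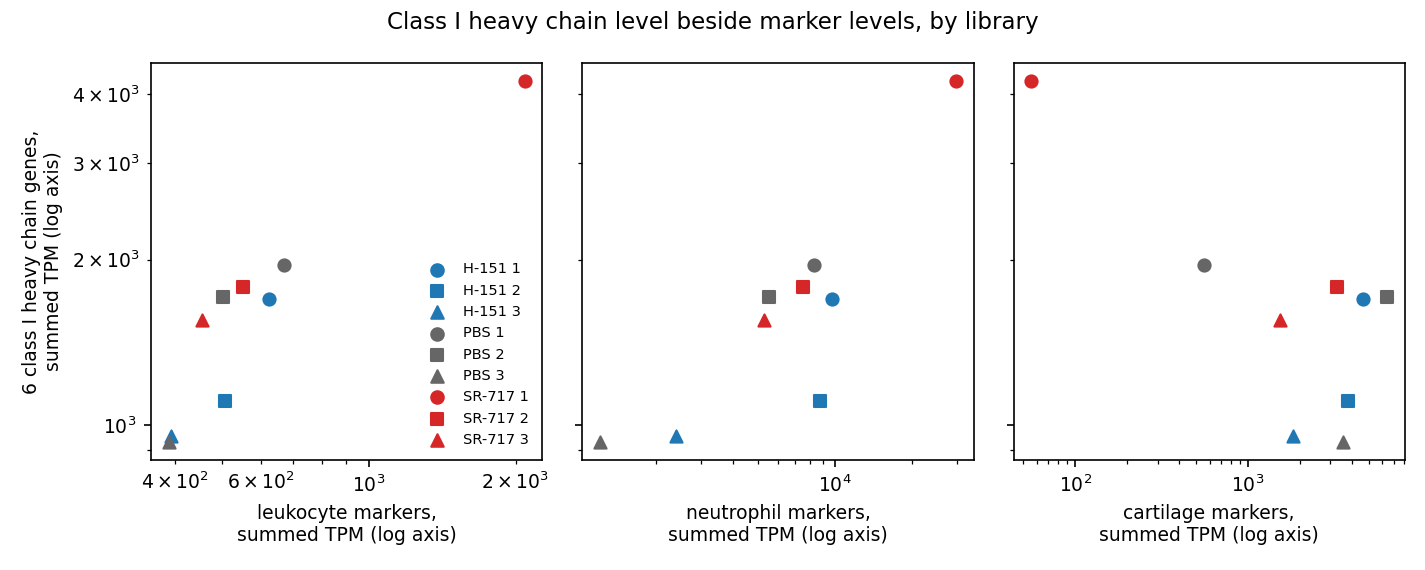
Summed TPM of the 6 heavy chain genes against the summed TPM of leukocyte, neutrophil and cartilage markers in each of the 9 libraries, all on log axes. SR-717 1 is alone at the highest leukocyte and neutrophil and the lowest cartilage level, and the other SR-717 libraries lie among the PBS and H-151 libraries.

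The neighbourhood on chromosome 17 was compared as well, since 8 members share it. Between the outer ends of H2-K1 and H2-T23, 83 other genes were tested against PBS with SR-717, and 57 of them (68.7%) were higher, with a median log2 fold change of 0.10, against 52.1% outside the stretch. With H-151, 26 of 85 (30.6%) were higher, against 44.3% outside. Without SR-717 1, 38 of 84 (45.2%) of the neighbours were higher with SR-717, against 46.9% outside, so that the higher share rested on that library. Genes outside the members with the promoter letters GGGATTCCC, inside this stretch or not, were on both sides of PBS. Of 49 tested non-members, 22 (44.9%) were higher with SR-717 than with PBS, with a median of -0.03, against 51.9% of all genes with a promoter entry. For GAAANNGAA, 584 of 978 (59.7%) were higher, with a median of 0.06. Without SR-717 1 the shares were 56.0% for GGGATTCCC and 45.1% for GAAANNGAA, against 47.0% of all genes with a promoter entry.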

How the data were processed

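Callus RNA was poly(A)-selected, made into strand-specific libraries and read from both ends, and samples were grouped by their labels. Values were used as deposited: expected counts, which the authors had not normalized, and the deposited TPM, which the authors had scaled for gene length and library total. The submitters' processing notes name the build mm10; the aligner, counter, annotation and use of strand are not given in the sources used here. Libraries held 16987398 to 23272480 counts, and genes with few counts are measured less precisely. Rounding to whole numbers preceded the tests and touched 8.91% of the expected counts. edgeR 4.0.16 in R 4.3.3 was used with filterByExpr (minimum count 10, total 15), TMM and the quasi-likelihood test, on the 6 libraries of 2 groups, with Benjamini-Hochberg adjustment over all genes tested. It was tested on simulated data first. Ratios were compared by exact permutation tests in scipy 1.17.1 (Python 3.11.15). The labels do not say that replicates came from separate mice, so p-values measure the spread between libraries, which may be technical.

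Members, lists and ratios were chosen with earlier results of these data known. All 10 members were named; of other lists, genes with an unadjusted p under 0.05 against PBS and Psmb8, Psmb9, Psmb10, Tapbp, Irf1 and Ifng were named, some genes that this rule covers are not reported here, and other names were chosen after their values were seen. The most similar genes were the 10 with the highest Pearson r with the summed heavy chains and the 5 for Nlrc5. Same-numbered libraries deviated together from their group means in SR-717 and PBS (r = 0.65, 0.34 and 0.14) and in H-151 and PBS (r = 0.30, 0.48 and 0.50). All were above a cutoff of 0.1, by which the numbers of the labels were used as a block there. Libraries of unequal number were not compared, so these r values do not show pairs, and what a number stands for is not stated. The r of 0.65 joined SR-717 1 and PBS 1, the 2 libraries highest on the first principal component. In SR-717 and H-151, r was 0.34, 0.06 and 0.08. Alternatives were DESeq2 1.42.0 and its size factors, no filter, all 9 libraries in 1 fit, the replicate block, other sums of heavy chains, CPM for TPM, and each library left out in turn. No 2 libraries were copies (smallest chi-square per gene 25.5 over 36 pairs). Promoters are from RefSeq and positions from GENCODE.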

Additional observations from a re-analysis of the deposited data

How the results depend on the processing

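SR-717 1 decided most of the values against PBS: leaving it out turned H2-T23 to -0.17, Tap2 to -0.0077 and Nlrc5 to -0.35, and leaving out PBS 1 turned H2-T23, B2m and Tap1 to 0.017, 0.15 and 0.062 in H-151 against PBS. With each library left out in turn, H2-T23, Tap2 and Nlrc5 reached up to 0.74, 0.82 and 1.52 with SR-717, and H2-T23, B2m and Tap1 down to -0.44, -0.48 and -0.39 with H-151. These 6 were the only reversals among 220 alternative values of the members against PBS. In the same way, genes at an unadjusted p under 0.05 and 1.5-fold numbered 95 to 319 for SR-717 against PBS (73 with all libraries), 43 to 698 for H-151 against PBS (60) and 64 to 661 for SR-717 against H-151 (107). Without the filter on low counts they numbered 194, 127 and 223. All 9 libraries in 1 fit gave 176 for SR-717 against PBS and 171 for SR-717 against H-151, and DESeq2's Wald test 138 and 209. The replicate block gave 443 for SR-717 and 262 for H-151 against PBS, and it changed no call at an adjusted p under 0.05; DESeq2 called 1 gene there, in SR-717 against H-151. The summed heavy chains in SR-717 against H-151 ranged from 0.47 to 1.40 with a library left out, beside 1.12, and were 1.85 for H2-Q4, H2-Q6 and H2-Q7 alone. Added after seeing the data, TPM in place of counts gave a difference of -1.43 percentage points for H2-T23 against the classical genes, beside -1.11. Also added then, leaving SR-717 1 out of the blocked fit gave 138 genes at those thresholds, beside 443. In that fit PBS 1 had no partner and did not enter the difference. The causes were not tested. Low counts of Ifng, Cd8a, Klrd1 and Klrk1 and the spread of 3 libraries limit what these data can separate.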
